A study of Ovis aries with 14 samples.

Results

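Of 27054 genes counted in lamb lung (Ovis aries, right lower lobe), 243 were lowest in both lungs of the term group and are described here. They were chosen by their own measured values in all 14 libraries, as CPM (the count of a gene for a column total of 1000000 counts). A gene needed a mean CPM from 2 to under 1000, a CPM in both term libraries below all 12 others, and a term mean of at most 0.6 times the mean of the 12. It also needed at least 1 library of respiratory support at or above the lowest fetal library. The low level at term is therefore how the genes were found, and it is described without a test.

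Term lungs (n = 2) came from untreated lambs labelled gd150, their gestational day. Preterm lambs had 3 days of support and are labelled gd134. They received invasive mechanical ventilation (IMV, n = 3), in which a tube in the airway carries the breaths, or noninvasive respiratory support (NRS, n = 3), which leaves the airway without a tube. Untreated fetal lungs match the beginning of support (fetal start, n = 3, labelled gd127, gd128 and gd131) and its end (fetal end, n = 3, with the labels gd135, gd134 and gd136 for replicates 1 to 3). The animal identifiers of fetal end replicates 1 and 2 carry each other's day, so their ages are uncertain by that much. Every library came from a lamb with its own identifier. The labels do not say whether term lambs had been born, and the animal identifiers of both end in 18, as do those of 6 of the 12 other lambs. Column totals ran from 23267448 to 31586235 counts.

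Late in gestation the walls of the lung's airspaces thin, type 2 cells of the epithelium store surfactant, and the growth programme of the fetal lung winds down. Birth then replaces lung liquid with air. A lung born preterm meets air before these steps are complete, and lambs given breathing support are used to follow it through them. The genes described here are lower at term than in every supported preterm lung, by the rule that chose them. The table gives Ensembl identifiers and pairs none of them with a symbol (0 matched the reference table), so the genes are given by identifier, with no role, sequence or position, and the lung label was not checked against cell type markers. The RNA is from whole tissue, where fewer cells of a type and less RNA per cell cannot be told apart.

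The rule took few genes from many. In its CPM range were 13364 genes, of which 643 had both term libraries below all 12 others and 254 of these also a term mean at or under the 0.6 limit. The last condition removed 11 genes, in which every supported library lay below every fetal one. In the mirror image, 663 genes had both term libraries above all 12 others. Of these, 76 also had a term mean at least the inverse of that limit. The 2 directions were thus alike in the separation of libraries, and their counts differed once the limit was set. The limit uses the mean of the 12, which a few high libraries can raise, so it does not treat the directions alike. The difference between these counts was not tested and is not read as a property of term lungs. The mirror image has no last condition, so the 76 stand beside the 254. Members were 1.82% of the genes in the range. They made up 4.82% of the 1578 genes with a mean of 2 to under 5 CPM, and 0.935% of the 2033 genes with 100 CPM or more.

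The typical member stood at a little under 50% of its level elsewhere. The term mean was a median of 46.6% of the mean of the 12 other libraries (quartiles 37.3% to 53.6%), a log2 ratio of -1.10. It lay between 6.76% and 59.8%, with 14 members at or under 20% and 93 between 50% and 60%. The 3 members nearest the limit had ratios of 0.5984, 0.5981 and 0.5975, and the 3 genes just beyond it, which met all other conditions, had 0.6008, 0.6012 and 0.6016. Both term lungs gave like values: the higher was a median of 1.18 times the lower, and 9 members were over 2-fold apart. The gap to the other libraries was narrow. The highest term value was a median of 0.876 times the lowest of the 12 others, and for the closest member 0.9985 times. Counting error is largest for the rare members: 118 had under 100 counts in a term library, and 1 had 3 or fewer.

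**Figure D1:**
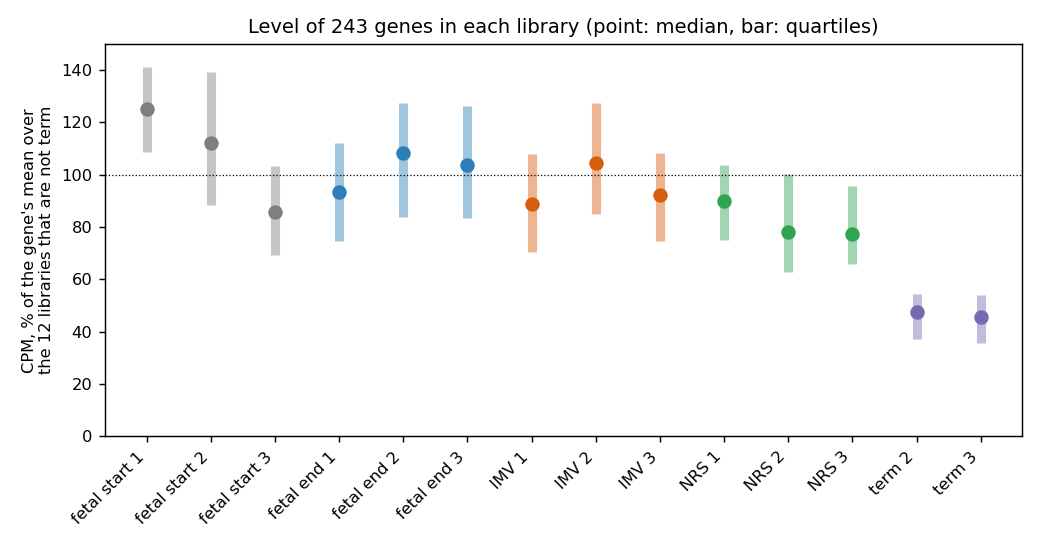
CPM of the 243 genes in each library (x axis), as a percentage of the gene's own mean over the 12 libraries that are not term (y axis); points are medians over genes, bars span the quartiles, and the dotted line marks 100. Both term medians lie near 46%, and NRS replicates 2 and 3 have the lowest medians of the other 12, at 78.1% and 77.4%.

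Outside term the members were not at one level. Expressed as a percentage of each gene's mean over the 12 libraries that are not term, the library median was 125.1, 112 and 85.6 at fetal start (replicates 1 to 3) and 93.4, 108 and 103.9 at fetal end. It was 88.9, 104.5 and 92.2 after IMV, 89.8, 78.1 and 77.4 after NRS, and 47.4 and 45.5 at term (replicates 2 and 3). Every NRS library lay below every fetal end library, while IMV overlapped both fetal groups. Fetal start spread most: its replicate 3, the oldest of the group (gd131), lay below all 8 other libraries of the fetal and IMV groups, and its replicate 1 above all of them. The same medians over all 13364 genes of the CPM range lay between 95.4% and 102.6%.

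NRS replicate 2 was the lowest of the 12 for 59 members, followed by NRS replicate 3 and fetal start replicate 3 with 32 each, and fetal start replicate 1 for 0. Fetal start replicate 1 was the highest for 60 members and fetal start replicate 2 for 45. Shares of the CPM range are not given for these counts, so they describe the list. NRS replicate 2 also had the smallest column total. Over the 12 libraries the median level had a Spearman correlation of 0.448 with the column total and -0.259 with the TMM scaling factor (points from one table that share the members). The part of depth in the order of the libraries was not tested. Summed over all members, the level was 4170 and 4512 CPM at term and 6686 to 11070 CPM elsewhere.

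Support and fetal lungs are compared as a description, since the last condition of the rule sets one against the other. The supported mean was under the fetal mean in 176 of 243 members (72.4%), against 48.2% of the genes in the CPM range, and the ratio of those means was a median of 0.851 (quartiles 0.714 to 1.01). In 104 members the IMV and the NRS mean both lay below both fetal means, in 70 only NRS did, in 21 only IMV did, and in 48 neither did. In 87 members no supported library fell below the lowest fetal one, and in 15 members 5 of the 6 did. The last condition of the rule left out genes in which all 6 did. No shares of the CPM range are given for these splits, so they describe the list. The name "low only in term lungs" thus describes the separation of single libraries, which the rule set. The group means of most members were also lower with support than in fetal lungs.

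**Figure D2:**
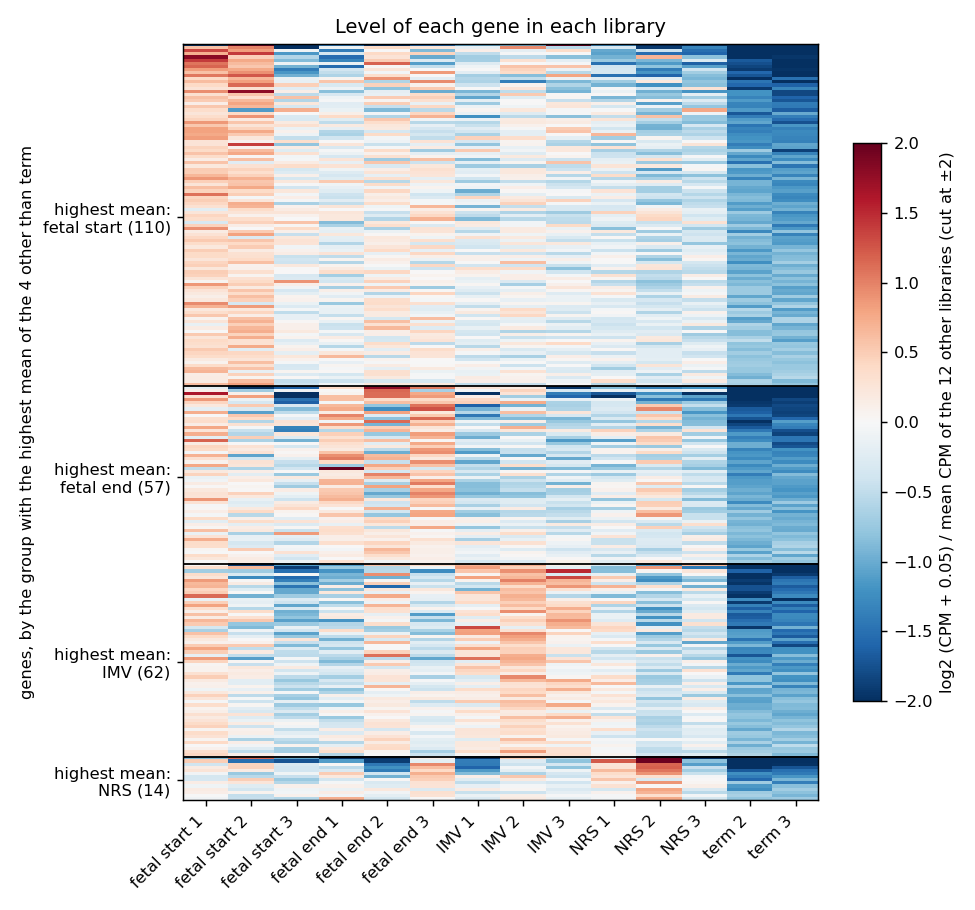
Level of each of the 243 genes (rows) in each library (columns), as the log2 ratio of CPM + 0.05 to the gene's mean over the 12 libraries that are not term, with blue below and red above that mean and the colour scale ending at ±2. Rows are blocked by which of the 4 groups other than term has the highest mean (110 fetal start, 57 fetal end, 62 IMV, 14 NRS) and sorted by the term ratio; both term columns are blue throughout.

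The highest mean outside term was at fetal start in 110 members (45.3%), after IMV in 62 (25.5%), at fetal end in 57 (23.5%) and after NRS in 14 (5.76%). NRS had the lowest of these 4 means in 129 members, IMV in 66, fetal end in 28 and fetal start in 20. The most frequent pattern was highest at fetal start and lowest after NRS, with 73 members. Shares of the CPM range are not given for these orders of the 4 means, so the counts describe the list. For pairs of groups they are. The IMV mean was above the NRS mean in 68.3% of the members and in 42.4% of the range. The fetal start mean was above the fetal end mean in 61.3% of the members and in 46.3% of the range. In the 62 members highest after IMV, the IMV mean was a median of 1.34 times the mean of the other 3 groups, and the term mean was a median of 43.2% of the mean of the 12. For 3 members all IMV libraries lay above the 9 others that are not term (3 of 243, where 1.92% of the genes in the CPM range did so). The same held for all fetal start libraries in 5 members (where 1.34% of the range did), for all fetal end libraries in 3 (where 0.861% did) and for all NRS libraries in 0 (where 2.30% did). In most members, as in most genes of the CPM range, the group with the highest mean thus overlapped the others. The overlap is therefore not particular to the members.

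Members varied together over the 12 libraries more than the genes of the CPM range did, but loosely. Over 29403 pairs the median Spearman correlation across the 12 libraries was 0.203 (quartiles -0.0839 to 0.455), and over pairs of genes in the CPM range it was 0.021. It was over 0.7 in 6.6% of the member pairs and in 2.5% of all pairs. The first principal component of the members held 31.1% of their variance, and 185 of 243 loaded on it with the same sign. On it fetal start replicate 1 (0.421), fetal end replicate 2 (0.358) and IMV replicate 2 (0.31) stood at one end and NRS replicate 2 (-0.559) at the other. All IMV libraries had positive scores (0.104 to 0.31) and all NRS libraries negative ones (-0.559 to -0.128), while both fetal groups had libraries on either side of 0. The highest of the 12 values was a median of 2.71 times the lowest, where for the genes in the CPM range it was 1.73 times. Of the members, 2.47% spanned more than 10-fold, against 3.45% of the genes in the range. The rule used these same 12 values and took a larger share of the rare genes, where counting error is largest. The spread and the correlations of the members therefore describe the list.

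ENSOARG00000011885, the member with the lowest ratio, had 0.0679 and 0.280 CPM in the term libraries (2 and 8 counts). It had 4.21, 4.21 and 2.76 CPM after IMV, 2.01, 1.07 and 4.01 after NRS, 2.60, 0.638 and 1.13 at fetal start, and 1.14, 3.76 and 3.34 at fetal end. Its lowest other library, fetal start replicate 2, stood above both term values. All IMV values lay above all fetal start values, and the NRS and fetal end values overlapped both. The term mean was 6.76% of the mean of the 12 (log2 ratio -3.89), and from the term libraries singly the log2 ratio was -5.25 and -3.20 (without replicate 3 and without replicate 2).

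ENSOARG00000007452, the next lowest, had 1.46 and 1.44 CPM at term. It had 7.86, 8.45 and 65.8 CPM after IMV, 6.64, 2.06 and 3.59 after NRS, 2.39, 77.7 and 3.88 at fetal start, and 5.80, 2.12 and 5.44 at fetal end. IMV replicate 3 and fetal start replicate 2 were far above the other 10, which ran from 2.06 to 8.45 CPM. The term mean was 9.07% of the mean of the 12, but 0.258 times their median, and the log2 ratio of -3.46 became -2.84 without fetal start replicate 2 and -2.98 without IMV replicate 3. A ratio to a mean can thus rest on 1 or 2 lambs.

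**Figure D3:**
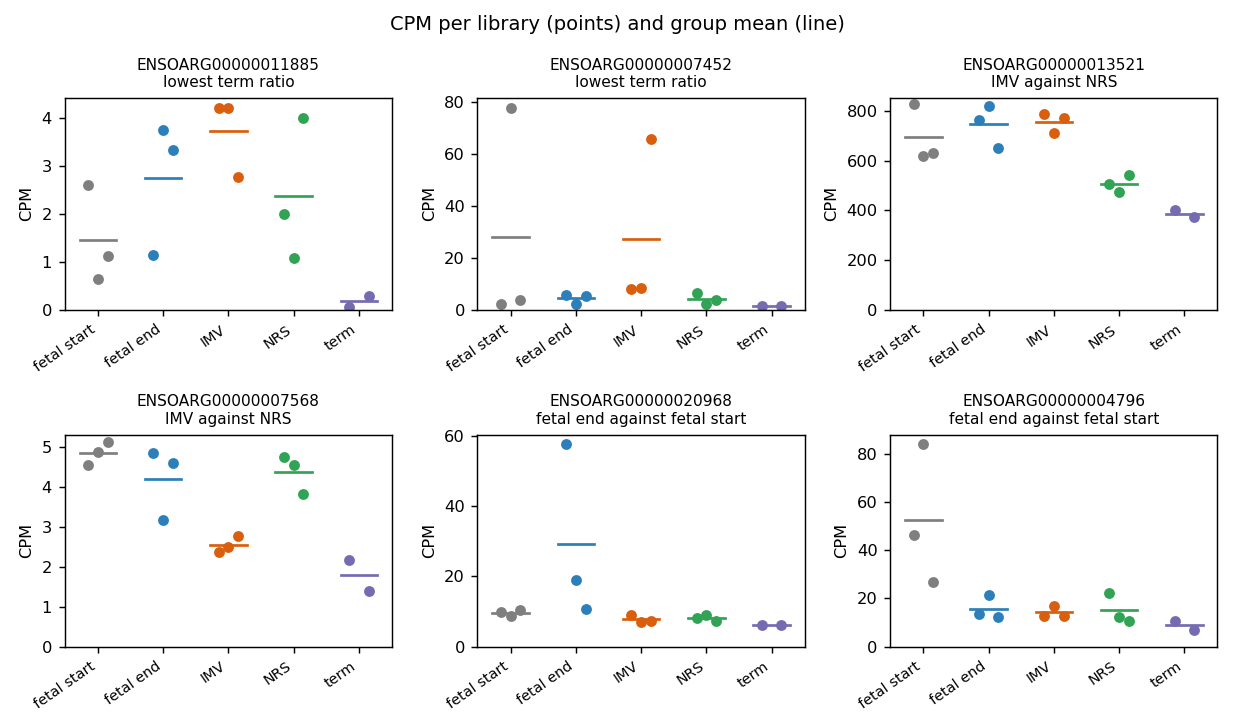
CPM of 6 of the 243 genes in each library (points) with the group mean (lines), on a linear axis from 0 for each gene; groups are fetal start, fetal end, IMV, NRS and term. Term points are the lowest in every panel. In ENSOARG00000011885 term replicate 3 stood at 0.280 CPM and fetal start replicate 2, the lowest other library, at 0.638. The margin is narrowest in ENSOARG00000004796, where NRS replicate 3 stood at 10.65 CPM and term replicate 2 at 10.63.

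To see whether the low level at term recurs in a lamb that did not choose the genes, the rule was applied without term replicate 3. It then took 634 genes, whose median level in term replicate 2 was 47.6% of the mean of the 12 others. In term replicate 3, which had no part in the choice, their median level was 62.1%, and 576 (90.9%) were below that mean. The term conditions (below all 12 others, and at most 0.6 times their mean) were met there by 201 of the 634 genes, 31.7%. Genes vary together and 1 lamb was left out, so no interval is given for this share. Over all 13359 genes of the CPM range 4.36% met them, with a median level of 99.1%. The 12 other libraries are the same in the choice and in the check, so a library that is high by sampling enters both. With the roles of the term libraries exchanged, 201 of 554 genes (36.3%) met the conditions in term replicate 2, where 4.9% of all genes did. Apart from shifts in the CPM range this counts the same overlap again, so it is no second check. Most genes of a list built on 1 term lamb did not meet the conditions in the other. The share that did was above that of all genes, and the part of the 12 shared libraries in it was not tested.

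**Figure D4:**
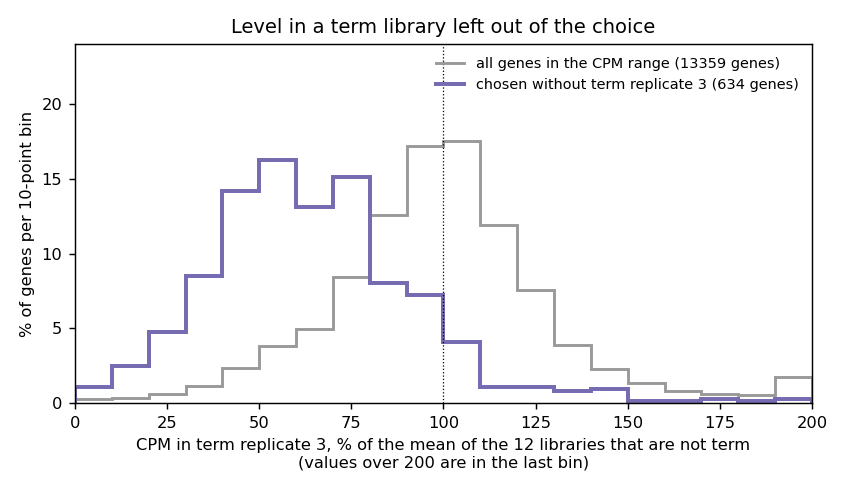
CPM in term replicate 3 as a percentage of the mean of the 12 libraries that are not term (x axis, bins of 10 points) for the 634 genes chosen without that library and for all 13359 genes of the CPM range (y axis, percentage of genes). The chosen genes centre on 62.1% and all genes of the range, which include them, on 99.1%, with overlap between the distributions.

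IMV against NRS asks how the way of support bears on the members, and since the rule treats these groups alike, it did not choose them. The members' median log2 fold change was 0.28 (quartiles -0.03 to 0.56), with 172 of 243 higher after IMV, where all 17069 genes tested had a median of 0.00. None of the 243 passed (edgeR quasi-likelihood test, Benjamini-Hochberg adjusted over all genes, smallest adjusted p of a member 0.36), and of all genes 0% did. At an unadjusted p under 0.05, 49 members (20.2%) were higher after IMV, where 6.0% of all genes were, and 8 (3.29%) were higher after NRS, where 4.86% were. Members vary together, so these shares are a description of the list.

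The shift towards IMV was uneven over lambs. Without NRS replicate 2 the 49 members became 27, where 4.14% of all genes were higher after IMV. Without IMV replicate 2 the 49 became 33, where 4.93% of all genes were. The 8 members higher after NRS became 17 without NRS replicate 3, where 4.07% of all genes were. They became 2 to 5 with any other of the 6 libraries left out, where 2.99% to 4.8% of all genes were. Identifiers of IMV replicates 1 and 2 end in 17, and those of IMV replicate 3 and of all NRS lambs in 18. With the ending as a covariate the median log2 fold change was 0.10. At that unadjusted p 16 members were then higher after IMV, where 3.37% of all genes were. Within the ending 18 IMV has 1 lamb, too few for a value of its own, and what the ending stands for is not stated.

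ENSOARG00000013521 had the smallest p of the members higher after IMV. It had 787.5, 708.7 and 770.6 CPM after IMV and 506.9, 472.4 and 540.7 CPM after NRS. Fetal start libraries had 828.8, 619.1 and 630.8 CPM, fetal end libraries 764.5, 820.1 and 650.6 CPM, and term libraries 399.9 and 373.2 CPM. All NRS values lay below all IMV and fetal values and above both term values. The log2 fold change was 0.62 ± 0.12 (SE), which did not pass in edgeR (adjusted p = 0.36, from 0.239 to 0.756 over its other edgeR fits), whereas DESeq2 called it (adjusted p = 0.00322). DESeq2 called 2 members higher after IMV, where it called 0.475% of the 15790 genes with an adjusted p, and 0 members higher after NRS, where it called 0.279%. The second of the 2, named after its values were seen, was ENSOARG00000002050, with 31.7, 41.3 and 47.4 CPM after IMV and 27.3, 20.2 and 22.7 CPM after NRS. Its DESeq2 adjusted p was 0.0142 and its edgeR adjusted p 0.36. Term lungs had 18.6 and 14.5 CPM of it, below every NRS library.

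The opposite order is shown by ENSOARG00000007568, with the smallest p of the members lower after IMV. It had 2.36, 2.50 and 2.76 CPM after IMV, and 4.74, 4.56 and 3.82 CPM after NRS. Fetal start libraries had 4.56, 4.86 and 5.12 CPM, fetal end libraries 4.85, 3.17 and 4.59 CPM, and term libraries 2.17 and 1.40 CPM. Here the IMV values lay nearest to term, and the NRS values within the fetal range. The log2 fold change of -0.73 ± 0.23 (SE) did not pass (edgeR adjusted p = 0.36, DESeq2 adjusted p = 0.0963).

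**Figure D5:**
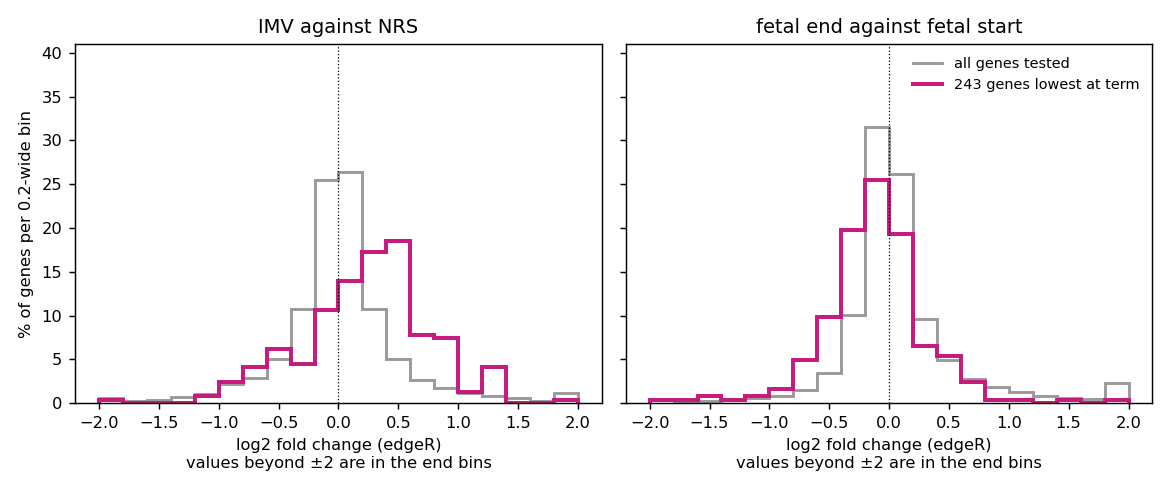
Distribution of log2 fold changes from edgeR (x axis, bins of 0.2) for the 243 genes and for all 17069 genes tested (y axis, percentage of genes), for IMV against NRS and for fetal end against fetal start. The 243 genes lie to the right of all genes tested in the first comparison (median 0.28) and slightly to the left in the second (median -0.12).

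Fetal end against fetal start compares older with younger fetal lungs, and the rule treats these groups alike too. The members' median log2 fold change was -0.12 (quartiles -0.33 to 0.11), with 157 of 243 lower at fetal end, against a median of 0.00 over all genes tested. None of the members passed in edgeR (smallest adjusted p 0.352), and of all genes 0.00586% did. At an unadjusted p under 0.05, 15 members (6.17%) were higher at fetal start, where 3.13% of all genes were, and 4 (1.65%) were higher at fetal end, where 4.60% were. All fetal end identifiers end in 19, an ending that no other group has, so age and whatever the ending stands for cannot be told apart.

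This shift depended on fetal start replicates 1 and 2, the youngest lungs. The median was -0.02 and -0.03 without replicate 1 and without replicate 2, and -0.26 without replicate 3. In that last fit 40 of the 243 members were lower at fetal end at that unadjusted p, where 4.86% of all genes were. Higher were 2 members, where 6.9% of all genes were. For the other libraries left out, brackets after such counts likewise give the share of all genes in the same fit. Without fetal start replicate 1 the balance of these counts turned. Then 17 members were higher at fetal end (4.33% of all genes) and 12 lower (3.26%). Without fetal end replicate 2 they were 12 higher (4.85% of all genes) and 31 lower (3.93%). Without fetal end replicate 1 they were 4 higher (3.04% of all genes) and 6 lower (1.71%). With fetal end replicate 1 left out the median was -0.07, and -0.18 with replicate 3 left out. Over the 6 fetal libraries the Spearman correlation of a member's CPM with gestational day had a median of -0.314, with 166 of 243 negative (68.3%). For the genes of the CPM range the median was -0.0286, with 50.5% negative.

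ENSOARG00000004796 had the smallest p of the members lower at fetal end. It had 46.5, 84.2 and 26.8 CPM at fetal start and 13.5, 21.4 and 12.2 CPM at fetal end. IMV libraries had 12.8, 17.0 and 12.7 CPM, NRS libraries 22.1, 12.5 and 10.65 CPM, and term libraries 10.63 and 6.87 CPM. All fetal start values lay above all others, and the 9 values of fetal end and support overlapped. The log2 fold change of -1.78 ± 0.40 (SE) did not pass in edgeR (adjusted p = 0.352, from 0.117 to 0.928 over its other edgeR fits), and DESeq2 called it (adjusted p = 0.00429). Without fetal start replicate 2 it was -1.23.

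DESeq2 called 4 members lower at fetal end, where it called 0.228% of the 16665 genes with an adjusted p, and 2 members higher, where it called 0.504%. Besides ENSOARG00000004796 the smallest DESeq2 p among the lower ones was that of ENSOARG00000003428, named after its values were seen. It had 28.6, 27.8 and 17.5 CPM at fetal start, 10.9, 13 and 11.9 CPM at fetal end, and 6.35 and 6.73 CPM at term (edgeR adjusted p = 0.354, DESeq2 adjusted p = 0.0136). After IMV it had 12.7, 14.3 and 24.3 CPM and after NRS 14.8, 10.3 and 11.3 CPM, so IMV replicate 3 lay within the fetal start range.

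ENSOARG00000020968 had the smallest p of the members higher at fetal end, and 1 lamb carried it. Fetal end libraries had 57.8, 19.0 and 10.7 CPM, and fetal start libraries 9.69, 8.83 and 10.4 CPM. IMV libraries had 8.93, 7.06 and 7.35 CPM, NRS libraries 8.11, 8.98 and 7.33 CPM, and both term libraries 6.18 and 6.17 CPM. Apart from fetal end replicates 1 and 2 the libraries that are not term lay within 7.06 to 10.7 CPM. The log2 fold change was 1.56 with an SE of 0.44, and 0.60 without fetal end replicate 1. It did not pass in edgeR (adjusted p = 0.43) and did in DESeq2 (adjusted p = 0.0429). Its term mean was 45.2% of the mean of the 12 and 0.69 times their median, so by the median it would not have met the limit of 0.6.

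The other member that DESeq2 called higher at fetal end, ENSOARG00000018650, had 3.70, 9.83 and 5.84 CPM there and 2.46, 0.497 and 0.866 CPM at fetal start. It had 3.36, 3.23 and 0.682 CPM after IMV, 1.51, 1.07 and 1.20 after NRS, and 0.204 and 0.421 CPM at term (6 and 12 counts). All fetal end values lay above all others. The log2 fold change was 2.31 with an SE of 0.65. DESeq2 gave an adjusted p of 0.0413 and edgeR one of 0.436. It was chosen after its values were seen.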

How the data were processed

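Raw counts were deposited by the authors as whole numbers, without normalization, for each Ensembl gene in 14 sample columns. Per the submitters' processing notes the tools were bcl2fastq, cutadapt 1.16, STAR 2.7.0f, Subread, featureCounts 1.6.3 and DESeq2 1.22.2, with the build Oar_v3.1 and no role or order. Which annotation was used, with which strand setting, and how multi-mapping reads were treated is not given in the sources used here, so counts of overlapping or near-identical genes are uncertain. Groups came from the sample titles. Members were found on CPM from column totals (pandas 2.3.3). All genes passing filterByExpr (17069 of 27054, count minimum 10) entered 1 edgeR 4.0.16 quasi-likelihood fit in R 4.3.3 with TMM scaling and 5 group means (9 residual degrees of freedom), and p-values were Benjamini-Hochberg adjusted over them. All 243 members passed this filter. The SE of a log2 fold change is its size over the square root of F. The fit was tested on simulated data. DESeq2 1.42.0, RLE scaling, no filter, only the 2 groups, a replicate block, the identifier ending as covariate and each library left out were alternatives. The median fold changes of the members, the comparison of support and fetal lungs and the pairwise correlations got theirs after the data had been seen. Libraries of a group differed by 26.75 to 84.45 in chi-square per degree of freedom, so none repeats another. The share of genes that met the conditions in a held-out term library is over genes and covers no spread between lambs. The members and lists were chosen with earlier results of these data known. Planned marker lists of symbols could not be used, as 0 identifiers matched a symbol. Named genes are the 2 members with the lowest term ratio and, in each direction of the 2 tested comparisons, the 1 with the smallest p, since no member passed.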

Additional observations from a re-analysis of the deposited data

How the results depend on the processing

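With TMM and RLE scaling 224 and 223 genes met the rule, 220 and 219 of them among the 243. A limit of 0.5 gave 150 genes and one of 0.7 gave 379. The number ran from 231 to 634 with each library left out, and the highest are those without term replicate 2 or 3 (554 and 634), where 1 library fewer has to be low. The median log2 ratio of term to the others ran from -1.14 to -1.06 with each library left out, lowest in size without fetal start replicate 2, and was -1.0 against the 6 others whose identifiers end in 18. The share of genes that met the term conditions in a term library left out of the choice was 36.3% with replicate 2 left out, and 32.9% with TMM scaling. No member passed in either comparison under any other edgeR fit, and DESeq2 called 2 for IMV against NRS (119 of all genes) and 6 for fetal end against fetal start (122 of all genes). With the replicate number as a block 0 members passed in either comparison. Same-numbered libraries did not deviate together (correlations of -0.152 to -0.00204 for IMV and NRS and -0.102 to -0.0685 for the fetal groups), and 0 of 6 libraries in either comparison correlated best with their own number. The members with a lower supported than fetal mean numbered 161 to 191, and the median pairwise correlation was 0.146 to 0.218, with each of the 12 libraries left out. Only 2 term lambs and 3 lambs in the other groups limit all comparisons.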
